A study of Capra hircus with 72 samples.

Results

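The nuclear genes of oxidative phosphorylation were followed through 4 brain regions and 3 breathing conditions of the goat. Members were the rows of the deposited gene table whose symbol starts with NDUF, SDHA, SDHB, SDHC, SDHD, UQCR, ATP5 or with COX and a digit, and that do not lie on the mitochondrial chromosome. This gave 59 of 21343 protein-coding rows. By role they were 5 core subunits of complex I, 20 accessory subunits and 5 assembly factors of complex I, 2 subunits and 2 assembly factors of complex II, and 4 subunits of complex III. Complex IV gave 4 subunits, 4 tissue isoforms and 7 assembly factors, and complex V gave 5 subunits and its inhibitor. The rule reads symbol and chromosome alone. A further 6643 rows of the table have no symbol, and members of the family among them were not analysed here.

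Oxidative phosphorylation takes place at the inner mitochondrial membrane. Complexes I and II pass electrons from NADH and succinate to ubiquinone, complex III passes them to cytochrome c, and complex IV hands them to oxygen. Complexes I, III and IV pump protons, and complex V, the ATP synthase, uses the gradient to make ATP. Most subunits are encoded in the nucleus and a small set in mitochondrial DNA (mtDNA), so both genomes contribute to complexes I, III, IV and V. Neurons draw most of their ATP from this pathway.

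RNA was sequenced from a cortical region, the medial prefrontal cortex (mPFC), and from 3 regions of the medulla that serve breathing control. The latter were the retrotrapezoid nucleus (RTN), the nucleus of the solitary tract (NTS) and, for the third, the ventral respiratory column (VRC). The goats were female. They breathed room air, or 6% CO2 for 14 days (mild chronic hypercapnia), or 6% CO2 for 7 days and then 8% for 7 days (moderate chronic hypercapnia). Each of the 12 groups of region and condition held 6 libraries, 72 in all. The series description gives 6 animals per condition, but no label ties a library to an animal, so p-values measure the spread between these libraries.

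Library totals lay between 12.8 M and 31.9 M counts (median 19.3 M). The cortical marker SLC17A7 stood at 539 to 1049 CPM (counts over the TMM-scaled library size) in the mPFC libraries of room air and at 79.4 CPM or less in the medulla. The hindbrain gene HOXA4 was at 0.0938 CPM or less in mPFC and at 3.42 CPM or more in the medulla. Members took 0.850% to 1.57% of a library's counts, with a median of 1.12%. Of the room air libraries, replicate 1 of NTS stood apart from its group. Its members took 1.28% of counts where the other 5 ranged from 0.950% to 1.03%, and its mtDNA-encoded genes took 0.619% where the others ranged from 0.179% to 0.302%. Results that use this library are given with and without it where it changes them.

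**Figure D1:**
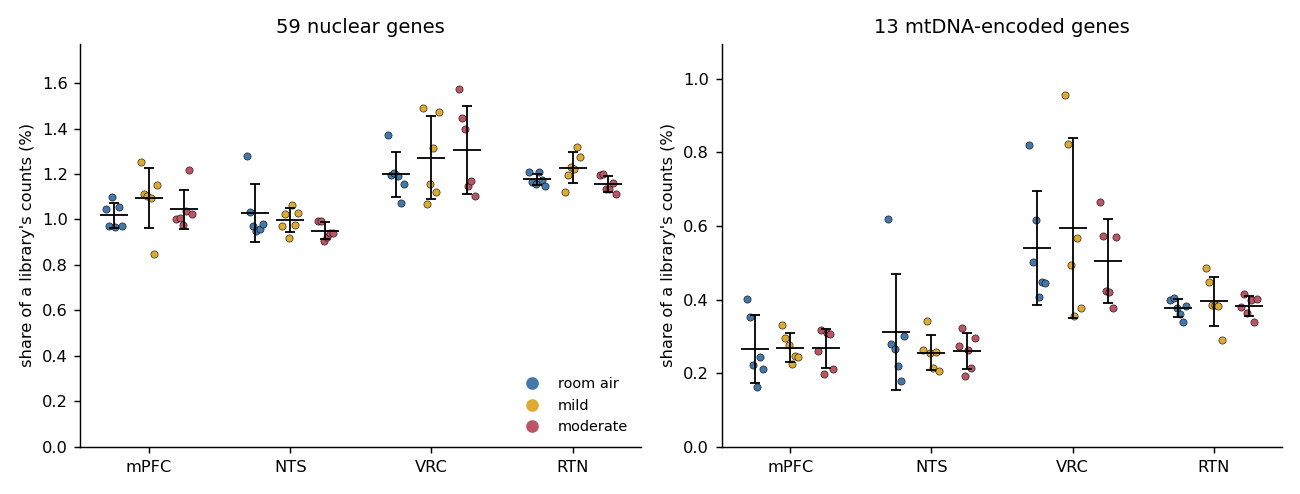
Share of each library's counts (%) in the 59 nuclear members (left) and in the 13 mtDNA-encoded genes (right), by region and condition. Points are libraries, and bars give the mean ± SD (n = 6). The highest NTS room air library sits at 1.28% on the left, and VRC reaches 1.57% on the left and 0.955% on the right.

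Levels of different members were compared per length, as the deposited RPKM (reads scaled to gene length and library size), in room air. The gene models of the table ran from 174 bases for COX14 to 5017 for NDUFA12. These lengths were taken as given, and the ranks between members depend on them. ATP5F1B, the catalytic beta subunit of ATP synthase, had a mean of 1308 ± 96.6 RPKM (SD, n = 6) in mPFC, 1156 ± 55.2 in NTS, 1258 ± 71.6 in VRC and 1329 ± 81.1 in RTN. COX8A, a small subunit of complex IV, stood at 993 ± 66.2 RPKM in mPFC, 1213 ± 240 in NTS, 1351 ± 214 in VRC and 1321 ± 136 in RTN. ATP5IF1, which inhibits ATP hydrolysis by the synthase, followed with 733 ± 89.4 RPKM in mPFC, 952 ± 164 in NTS, 1153 ± 196 in VRC and 1179 ± 71.8 in RTN. These 3 genes had the highest RPKM of the members in each region. ATP5F1B stood above COX8A in mPFC by more than their SDs, while in NTS, VRC and RTN their SD ranges overlapped.

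In complexes I, III and IV small subunits with short gene models had the highest RPKM. NDUFA1, an accessory subunit, led complex I in every region, with 564 ± 55.4 RPKM (SD, n = 6) in mPFC and 746 ± 144 in VRC. The core subunits of complex I were lower, from NDUFS1, which carries iron-sulfur clusters, at 63.0 ± 10.1 RPKM in VRC to NDUFS7 at 311 ± 52.3 in VRC. NDUFV1, the subunit that binds NADH, stood at 98.0 ± 5.28 RPKM in NTS and 122 ± 7.09 in RTN. Complex II was represented by its 2 membrane anchors: SDHD ran from 177 ± 14.4 RPKM in mPFC to 238 ± 19.0 in NTS, and SDHC from 148 ± 16.4 to 179 ± 15.8 in VRC. In complex III the small subunit UQCRQ stood at 836 ± 154 RPKM in VRC and at 476 ± 33.8 in mPFC, where the Rieske iron-sulfur protein UQCRFS1 was at 474 ± 44.2. The subunit genes SDHA, SDHB, COX4I1 and ATP5F1A are not among the symbols and were not analysed here.

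Assembly factors covered a wide range of levels. COX17, a copper chaperone of complex IV, reached 348 ± 108 RPKM (SD, n = 6) in VRC, NDUFAF8 308 ± 64.2 in NTS and COX14 322 ± 72.6 in VRC. In contrast COX10, which makes heme O, stood at 5.73 ± 0.662 RPKM in VRC and 11.6 ± 1.73 in mPFC. Of the tissue isoforms of complex IV, COX7A1, known from heart and skeletal muscle, was measured in every region at means of 97.8 to 167 RPKM. COX6A2, another muscle isoform, did not exceed 0.956 CPM in any room air library, and the testis isoform COX6B2 did not exceed 0.385 CPM. COX7B2 was low as well, with means of 6.22 ± 1.77 RPKM in mPFC, 4.07 ± 3.87 in VRC, 2.48 ± 0.767 in NTS and 0.795 ± 0.497 in RTN.

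Regions were compared in room air with edgeR's quasi-likelihood test on the 24 room air libraries, adjusted over the 15700 genes tested (Benjamini-Hochberg). The libraries were taken as independent, though across regions all 24 correlated best with their own replicate number. COX6A2 and COX6B2 fell under the filter on low counts, so 57 members were tested. Against the mean of the 3 medullary regions, mPFC was lower for most members: 37 were lower and 4 higher at an adjusted p under 0.05. Over all genes, 30.1% were lower and 30.9% higher. The members' median log2 fold change was -0.29, and that of all genes -0.01. Those lower were 4 of 5 complex I core subunits, 14 of 20 accessory subunits, 3 of 5 complex I assembly factors, both complex II subunits and both complex II assembly factors. They also held 2 of 4 complex III subunits, 3 of 4 complex IV subunits, COX7A1, 3 of 7 complex IV assembly factors, 2 of 5 complex V subunits and ATP5IF1. With the replicate number as a block 42 members were lower and 5 higher, and calls over all genes went from 9568 to 10265.

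All 4 members that were higher in mPFC belong to complex IV, namely 3 assembly factors and the isoform COX7B2, which was low in every region. COX10 ran from 28.3 to 44.1 CPM in the 6 mPFC libraries (median 37.6). It ran from 18.1 to 20.9 CPM in NTS (median 18.6), from 16.7 to 23.3 in VRC (median 19.97) and from 20.8 to 28.1 in RTN (median 23.8). The lowest mPFC library thus lay above every medullary library, and the log2 fold change was 0.81 ± 0.09 (SE, edgeR adjusted p = 1.14e-08).
COX15, which turns heme O into heme A, ran from 48.9 to 59.9 CPM in mPFC (median 55.5), from 30.7 to 46.4 in NTS (median 41.7), from 28.2 to 37.9 in VRC (median 34.5) and from 34.9 to 42.2 in RTN (median 38.3). Its mPFC libraries did not overlap the others either, with a log2 fold change of 0.55 ± 0.07 (SE, edgeR adjusted p = 8.14e-07). COX18, which helps insert COX2 into the membrane, was higher in mPFC by a log2 fold change of 0.27 ± 0.10 (SE, edgeR adjusted p = 0.0247), a call lost without replicate 1, 3 or 5 (adjusted p 0.0568 to 0.125). Groups did not overlap for 4 members in all, 2 higher and 2 lower. Over all genes this held for 10.5% higher and 6.59% lower.

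Of the members lower in mPFC, NDUFAF3, an early assembly factor of complex I, differed most. It ran from 22.3 to 27.5 CPM in mPFC (median 27.0), from 32.9 to 46.0 in NTS (median 34.4), from 43.9 to 58.1 in VRC (median 51.6) and from 44.0 to 53.4 in RTN (median 49.8). All 6 mPFC libraries lay below the medullary ones, with a log2 fold change of -0.81 ± 0.08 (SE, edgeR adjusted p = 6.40e-09).
The other non-overlapping member was SDHD, at 71.9 to 92.0 CPM in mPFC (median 82.4) and at 99.9 to 131 CPM in the medulla, and its log2 fold change was -0.47 ± 0.07 (SE, edgeR adjusted p = 1.80e-06). COX7A1 stood at 20.4 to 28.0 CPM in mPFC (median 21.8) and at 24.7 to 63.5 CPM in NTS (median 36.9), so the 2 groups overlapped. It was lower in mPFC by a log2 fold change of -0.76 ± 0.15 (SE, edgeR adjusted p = 9.90e-05). COX17, NDUFB3 and NDUFB7 were lower by -0.74, -0.72 and -0.70 on the log2 scale, and ATP5IF1 by -0.65.

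Several large catalytic and core proteins did not pass the test between mPFC and the medulla. The log2 fold change was -0.00 ± 0.06 (SE) for ATP5F1B, -0.01 ± 0.07 for UQCRC1, a core protein of complex III, and 0.18 ± 0.09 for NDUFS1. UQCRFS1 and NDUFV1 passed it at -0.20 ± 0.07 and -0.21 ± 0.07. Other parts of the pathway went the same way or were mixed. Of the 13 mtDNA-encoded subunits 7 were lower and none higher (median log2 fold change -0.51). Of 14 tricarboxylic acid (TCA) cycle genes 5 were lower and 2 higher, and of 10 glycolysis genes 2 were lower and 6 higher.

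The regions also differed in their cell type markers. All 9 myelin markers tested were lower in mPFC, where their summed level ran from 2022 to 7673 CPM against 7772 to 34724 in NTS, 22646 to 34522 in RTN and 39255 to 53265 in VRC. With the mean log2 level of the myelin markers as a covariate, 3 members were called in place of 41, calls over all genes went from 9568 to 2043, and the members' median log2 fold change became 0.24. COX10, COX15 and NDUFAF3 stood at 0.64, 0.13 and -0.41 there and did not pass. In that fit COX7A1, COX17 and NDUFB3 changed sign, to 0.19, 0.59 and 0.58. The myelin level and the regions go together in these libraries, so their parts in the difference cannot be told apart. In bulk tissue, fewer cells of a type and less RNA per cell cannot be told apart either.

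**Figure D2:**
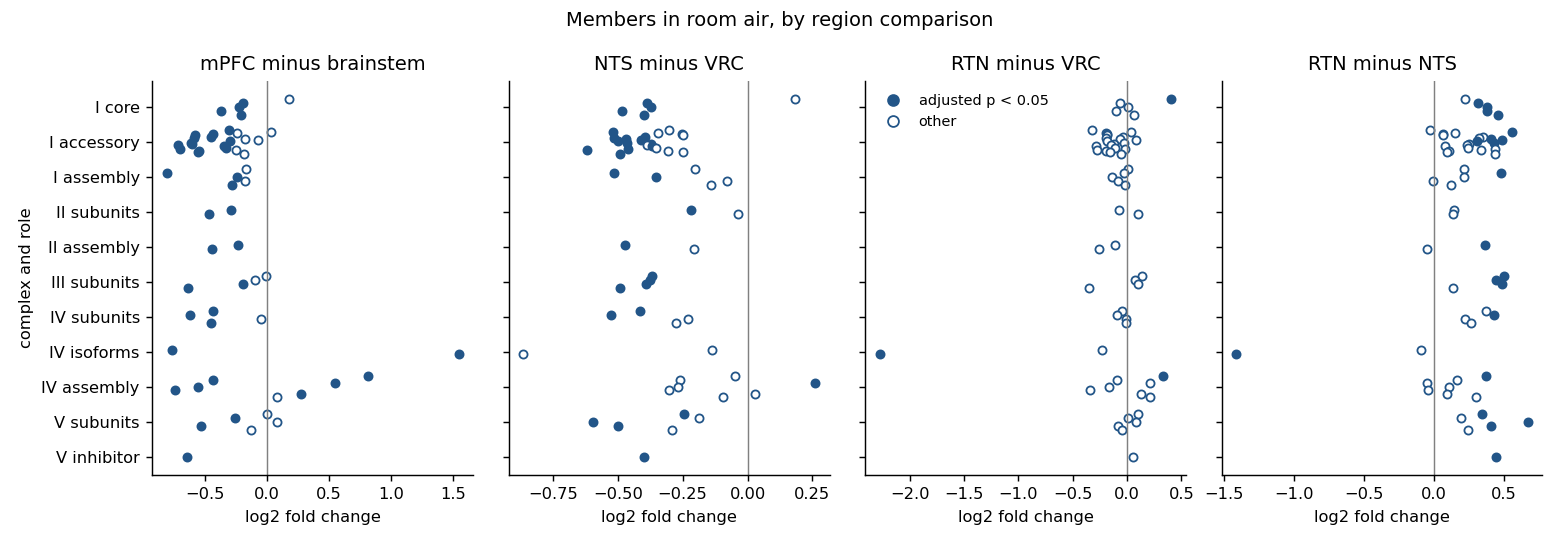
Log2 fold change of each tested member in the 4 room air comparisons, by complex and role (x axis scales differ between panels). Filled points have an adjusted p under 0.05. In the left panel 37 filled points lie left of 0 and 4 right of it, and in the third panel 3 points are filled.

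Within the medulla, NTS was lower than VRC. In NTS 30 members were lower and 1 higher, where 15.4% of all genes were lower and 17.6% higher, and the members' median log2 fold change was -0.37 (0.01 over all genes). The lower ones held 4 of 5 complex I core subunits, 12 of 20 accessory subunits, all 4 complex III subunits, 2 of 4 complex IV subunits and 3 of 5 complex V subunits. None of the 7 complex IV assembly factors was lower, and COX15 was the 1 member that was higher (log2 fold change 0.26 ± 0.09, SE, edgeR adjusted p = 0.0366). The call of COX15 was lost without any of replicates 2 to 6 (edgeR adjusted p 0.05002 to 0.135). NDUFA10, an accessory subunit, ran from 201 to 226 CPM in NTS (median 208), from 252 to 344 in VRC (median 305) and from 290 to 318 in RTN (median 301). The NTS libraries lay below all of VRC and RTN, with a log2 fold change of -0.52 ± 0.09 against VRC (SE, edgeR adjusted p = 7.39e-05).

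NDUFA9, which stabilises the joint between the arms of complex I, ran from 184 to 209 CPM in NTS (median 195), from 225 to 297 in VRC (median 253) and from 237 to 295 in RTN (median 267). NTS again did not overlap either region, and its log2 fold change against VRC was -0.41 ± 0.07 (SE, edgeR adjusted p = 0.000107). NDUFA9 was chosen for this comparison after its values were seen, as a member whose groups did not overlap. These were 3 lower members in NTS against VRC, the third being UQCRFS1, where 4.77% of all genes were lower without overlap. NDUFB9, ATP5F1D, COX6B1, NDUFAF3 and NDUFA6 were lower in NTS by -0.62, -0.59, -0.52, -0.51 and -0.51 on the log2 scale, and NDUFA6 lost its call without replicate 3 or 4 (edgeR adjusted p 0.0503 and 0.0633).

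**Figure D3:**
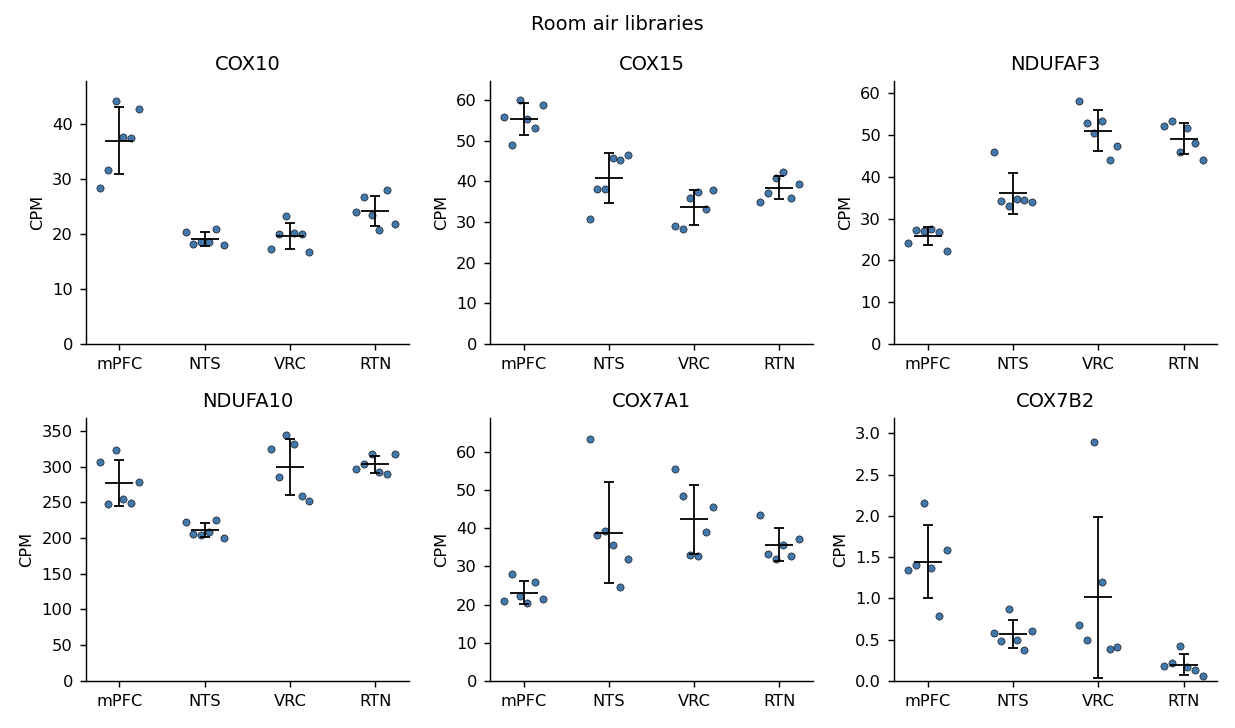
CPM of 6 members in the 24 room air libraries, by region. Points are libraries, and bars give the mean ± SD (n = 6). COX10 and COX15 are highest in mPFC, NDUFAF3 is lowest there, NDUFA10 is lowest in NTS, and 1 VRC library holds the highest COX7B2 value, 2.89 CPM.

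Replicate 1 of NTS bears on this comparison. Without it, an alternative chosen after seeing the data, 47 members were called, 46 of them lower, and the median was -0.47. Calls over all genes went from 5179 to 6619. All 9 myelin markers were lower in NTS than in VRC (median log2 fold change -1.40), and with the myelin covariate no member was called by edgeR, with 8 at an unadjusted p under 0.05. Over all genes that fit called 356, with 2617 of 15700 at an unadjusted p under 0.05. DESeq2 called 32 members in this comparison (5622 genes) and a fit on all 72 libraries 52 (10131 genes). With the replicate number as a block 41 were called (6288 genes), and with replicate 4 left out of every region 20 (3800 genes). Of the 13 mtDNA-encoded subunits 9 were lower in NTS, from ND4 at -0.82 to COX1 at -1.59 on the log2 scale.

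RTN was higher than NTS for 20 members and lower for 1, where 11.2% of all genes were higher and 10.4% lower. The median log2 fold change was 0.25 (0.01 over all genes). ATP5F1D, the delta subunit of ATP synthase, ran from 288 to 347 CPM in RTN (median 304) and from 169 to 262 CPM in NTS (median 185). The groups did not overlap, with a log2 fold change of 0.67 ± 0.12 (SE, edgeR adjusted p = 0.000334).
UQCRC1 ran from 615 to 738 CPM in RTN (median 667) and from 444 to 562 in NTS (median 480), again without overlap, at 0.50 ± 0.08 (SE, edgeR adjusted p = 7.10e-05). NDUFA10, NDUFA9, UQCRFS1 and NDUFAF3 were higher in RTN by 0.56, 0.49, 0.49 and 0.48. Non-overlapping groups were seen for 8 members, all higher in RTN, where 4.02% of all genes were higher without overlap. These were ATP5F1D, ATP5F1B, UQCRC1, UQCRFS1, NDUFA9, NDUFA10, NDUFV1 and NDUFS3, of complexes I, III and V. Without replicate 1 of NTS 36 members were called, 35 of them higher in RTN, and calls over all genes went from 3394 to 4689. With the myelin covariate 13 were called, all higher in RTN (2236 genes), and with all 72 libraries 46 (8658 genes). With replicate 1 left out of every region 37 members were called (4773 genes), and with replicate 2 or replicate 4 left out 12 (2251 and 2264 genes). With the replicate number as a block 32 were called (4417 genes).

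Between RTN and VRC 3 members passed the test. NDUFS1 ran from 165 to 236 CPM in RTN (median 195) and from 126 to 177 in VRC (median 151), so the groups overlapped, and it was higher in RTN by 0.41 ± 0.11 on the log2 scale (SE, edgeR adjusted p = 0.0169). COX10 was higher by 0.33 ± 0.11 (SE, edgeR adjusted p = 0.0452). NDUFS1 lost its call without replicate 2 or 3 (adjusted p 0.0623 and 0.0858), and COX10 without any replicate but 3 (adjusted p 0.0722 to 0.160) and with DESeq2 (adjusted p 0.0522). COX7B2 was lower in RTN, at 0.0594 to 0.429 CPM (median 0.173) against 0.385 to 2.89 in VRC (median 0.589), and its log2 fold change of -2.28 ± 0.49 (SE, edgeR adjusted p = 0.00270) rests on low counts. Over all genes 9.1% were higher and 5.57% lower. With replicate 1 left out of every region 5 members were called (2723 genes), and with replicate 2 left out 1 (1576 genes). With the replicate number as a block 6 were called (3406 genes). A fit on all 72 libraries called 26 members and 6447 genes in place of 2302. The 54 members that did not pass had log2 fold changes between -0.35 and 0.21.

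Within each region both levels of hypercapnia were set against room air and against each other, the contrasts for which the series was set up. No member passed an adjusted p of 0.05 in any of the 12 comparisons with edgeR, fitted on 18 libraries per region. Over all genes 0% were called in 11 of the comparisons and 0.00649% (1 gene, lower) in NTS under moderate hypercapnia. DESeq2 called 5 members in RTN, moderate against mild, where it called 128 genes in all, and no member elsewhere, and limma called no member. In VRC, moderate against mild, DESeq2 called 253 genes and limma 249, with no member among them. The accounts that follow therefore give values, counts at an unadjusted p under 0.05 and medians. A p that misses the threshold does not show that a member kept its level.

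**Figure D4:**
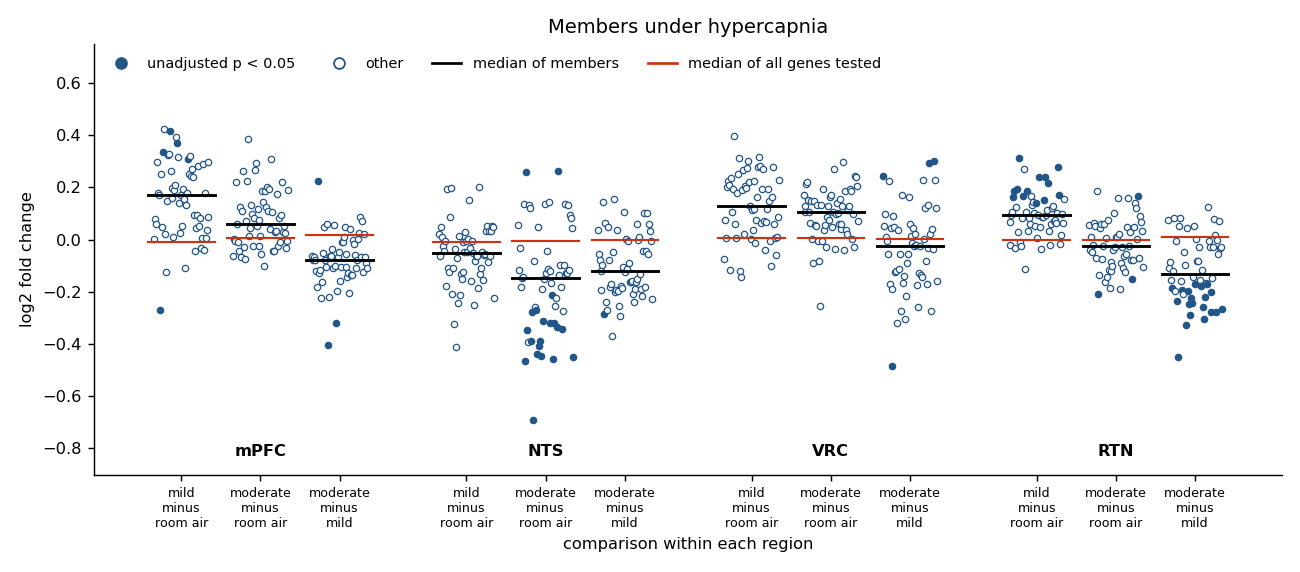
Log2 fold change of each tested member in the 3 comparisons of each region. Filled points have an unadjusted p under 0.05, black lines mark the members' median and red lines the median of all genes. The black line lies furthest below 0 in NTS, moderate minus room air, at -0.15, and furthest above it in mPFC, mild minus room air, at 0.17.

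In RTN the members stood higher under mild hypercapnia than in either other condition. Against room air 48 of 56 members had a positive log2 fold change, where 49.9% of all genes had one, with a median of 0.09 (-0.00 over all genes). At an unadjusted p under 0.05 there were 13 higher and none lower, where 3.32% of all genes were higher and 3.27% lower. Moderate against mild, 45 of 56 were negative, where 47.7% of all genes were, with a median of -0.13 (0.01 over all genes), and 20 were lower and none higher at an unadjusted p under 0.05, where 6.1% of all genes were lower and 4.46% higher. These 20 held 14 of 20 complex I accessory subunits and none of the 5 core subunits. Leaving out 1 library at a time, the counts ran from 7 (without room air replicate 5) to 17 (without room air replicate 1) for mild against room air and from 17 to 22 for moderate against mild. With the myelin covariate the 2 counts were 18 and 23, and the medians 0.12 and -0.14. Over all genes the counts were 1212 and 1876 there, against 1011 and 1620. Moderate against room air, the median was -0.02, with SDHC higher and NDUFS5 and COX16 lower, where 3.77% and 3.6% of all genes were; this count ran from 0 without room air replicate 1 to 7 without moderate replicate 5. The 3 comparisons share libraries, so they are not independent of each other. Counts over all genes are not given here for the fits that left out 1 library. A shift shared by all genes in those fits cannot be told from one of the members.

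NDUFB4, an accessory subunit in the membrane arm of complex I, ran from 85.1 to 104 CPM in room air (median 95.4), from 106 to 126 under mild hypercapnia (median 107) and from 80.4 to 103 under moderate (median 92.4). The 6 mild libraries lay above all 12 others. Mild against room air the log2 fold change was 0.24 ± 0.07 (SE, edgeR adjusted p = 0.666), and moderate against mild it was -0.30 ± 0.07 (SE, adjusted p = 0.189).
NDUFB9, also accessory, ran from 165 to 204 CPM in room air (median 191), from 207 to 231 under mild (median 215) and from 171 to 223 under moderate (median 193). Mild and room air did not overlap, while mild and moderate did. NDUFB4 and NDUFB9 were the 2 non-overlapping members in mild against room air, where 0.176% of all genes were higher without overlap. NDUFB9 was chosen after its values were seen.

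COX17 ran from 43.8 to 75.2 CPM in RTN in room air (median 51.8), from 54.9 to 72.3 under mild (median 68.4) and from 45.3 to 56.1 under moderate (median 48.8). One mild library, at 54.9 CPM, lay within the moderate range and the other 5 lay above it. The log2 fold change of moderate against mild was -0.45 ± 0.11 (SE, edgeR adjusted p = 0.189, DESeq2 adjusted p = 0.0262).
NDUFA1, an accessory subunit in the membrane arm, ran from 112 to 154 CPM in room air (median 129), from 134 to 179 under mild (median 143) and from 111 to 128 under moderate (median 119). Mild and moderate did not overlap, at a log2 fold change of -0.33 ± 0.09 (SE, edgeR adjusted p = 0.190). The 4 members that DESeq2 called beside COX17, among 128 genes, were NDUFB4, NDUFS5, NDUFB3 and NDUFA1, all accessory subunits of complex I. Non-overlapping members in moderate against mild were 5, all lower (NDUFB4, NDUFA1, NDUFB3, NDUFB6 and the complex II assembly factor SDHAF4), where 0.547% of all genes were lower without overlap. NDUFS5, NDUFB3, NDUFB6 and SDHAF4 were named after their values were seen.

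**Figure D5:**
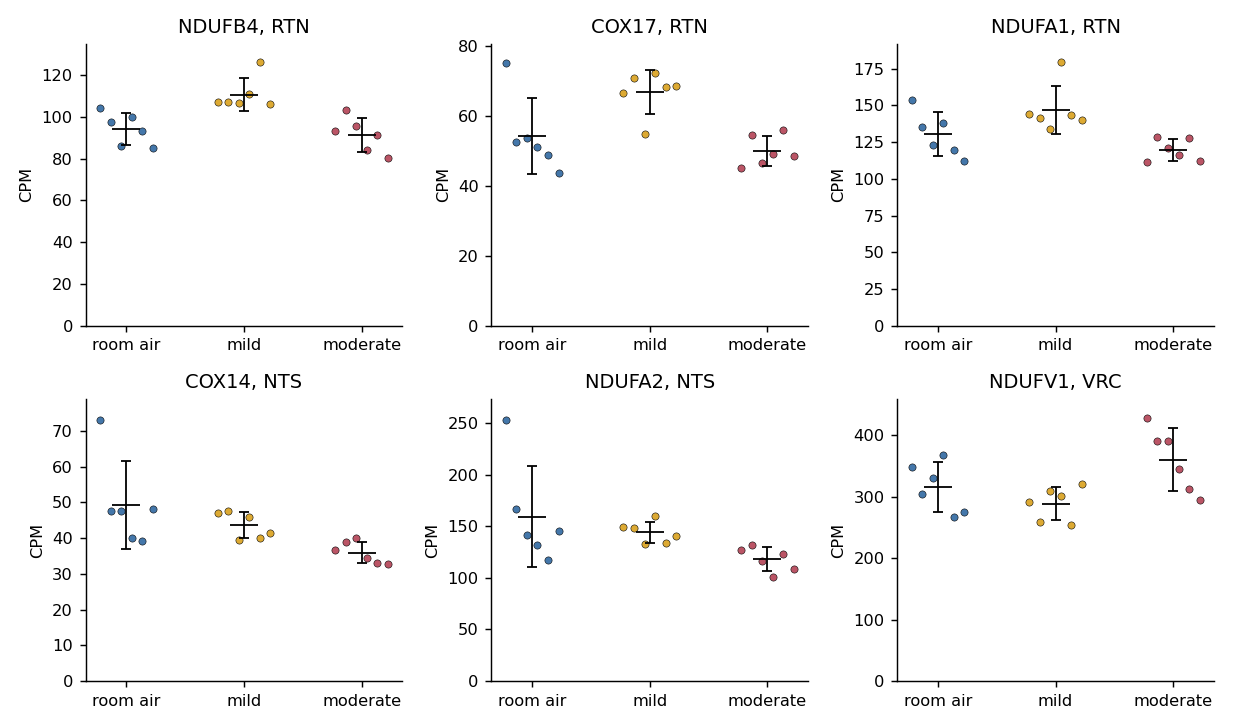
CPM of selected members by condition in RTN, NTS and VRC. Points are libraries, and bars give the mean ± SD (n = 6). In RTN the mild libraries of NDUFB4 lie at 106 CPM or more and those of the other conditions at 104 or less; in NTS 1 room air library of COX14 lies at 73.2 CPM.

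SDHC, a membrane anchor of complex II, ran from 81.3 to 97.2 CPM in RTN in room air (median 90.7), from 86.2 to 111 under mild (median 99.1) and from 91.0 to 108 under moderate (median 103). Both hypercapnia groups overlapped room air, at 0.17 ± 0.07 each (SE, edgeR adjusted p = 0.751 and 0.635), and the log2 fold change of moderate against mild was -0.00 ± 0.07. NDUFS1 had a log2 fold change of 0.12 ± 0.11 (SE) in moderate against mild. COX16, an assembly factor of complex IV, stood at -0.21 ± 0.09 (SE) in moderate against room air.

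Other genes moved with the members in RTN. Of the 13 mtDNA-encoded subunits 11 were positive under mild hypercapnia, 7 of them at an unadjusted p under 0.05, and 11 were negative in moderate against mild. All 8 microglia and all 5 leukocyte and red cell markers tested were positive under mild hypercapnia (median log2 fold changes 0.38 and 0.58) and negative in moderate against mild (-0.31 and -0.64). The summed microglia markers ran from 245 to 527 CPM in room air, 379 to 528 under mild and 275 to 597 under moderate, and the summed leukocyte and red cell markers from 11.3 to 23.9, 16.9 to 31.4 and 10.1 to 22.4 CPM. The 30 cytosolic ribosomal protein genes tested had medians of 0.14 under mild and -0.34 in moderate against mild. The part of these in the members' difference was not tested.

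In NTS the members stood lower under moderate hypercapnia. Of 57, 43 had a negative log2 fold change against room air, where 50.8% of all genes had one, with a median of -0.15 (-0.00 over all genes). At an unadjusted p under 0.05, 18 were lower and 2 higher, where 7.92% and 5.53% of all genes were. The lower ones held 10 of 20 complex I accessory subunits, 3 of 4 complex IV subunits, UQCRQ, COX7A1 and the assembly factors COX14, COX16 and NDUFAF8. The 2 higher ones were NDUFS1 at 0.26 and COX15 at 0.26 on the log2 scale.

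COX14, an early assembly factor of complex IV, ran from 39.3 to 73.2 CPM in NTS in room air (median 47.6), from 39.6 to 47.7 under mild (median 43.7) and from 32.7 to 39.9 under moderate (median 35.5). Moderate and room air overlapped at their edges, and the log2 fold change was -0.46 ± 0.13 (SE, edgeR adjusted p = 0.330). Without room air replicate 1, which held the 73.2 CPM, the log2 fold change of COX14 was -0.30 (edgeR adjusted p = 0.658).
COX7A1 ran from 24.7 to 63.5 CPM in room air (median 36.9), from 25.1 to 46.0 under mild (median 28.2) and from 16.8 to 34.9 under moderate (median 21.3). The groups overlapped, and its log2 fold change of -0.69 ± 0.22 (SE, edgeR adjusted p = 0.330) was the lowest of the members.
COX15 went the other way, from 30.7 to 46.4 CPM in room air (median 41.7), 37.3 to 53.6 under mild (median 46.7) and 42.8 to 57.5 under moderate (median 48.2). Its groups also overlapped, with an edgeR adjusted p of 0.339 under moderate.

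The count in NTS leaned on replicate 1 of room air. Without it the 20 members at an unadjusted p under 0.05 became 9 (2073 and 1087 over all genes), the median was -0.04 and 38 of 57 were negative. Under mild hypercapnia the median was -0.05 with all libraries and 0.05 without that one, and no member reached an unadjusted p under 0.05 with all libraries with edgeR, where 2.34% of all genes were higher and 2.32% lower. DESeq2 gave none either, and limma gave 5, with 2581 of 15418 genes. Moderate against mild the median was -0.12, with 43 members negative, where 49.9% of all genes were. COX14 alone had an unadjusted p under 0.05 (-0.28 ± 0.13, SE), where 1.71% of all genes were higher and 2.32% lower, and 15 members had one without room air replicate 1 (981 of all genes, against 620). NDUFA2, an accessory subunit, ran from 133 to 160 CPM under mild and from 101 to 132 under moderate, the 1 member whose groups did not overlap there, where 0.253% of all genes were lower without overlap. NDUFA2 was chosen after its values were seen.

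Myelin markers were lower in NTS under moderate hypercapnia as well. Of 9 tested, 8 had an unadjusted p under 0.05 and a negative log2 fold change (median over the list -0.88), and their sum ran from 3957 to 14874 CPM against 7772 to 34724 in room air. With the myelin covariate 1 member had an unadjusted p under 0.05 (541 of all genes) and the members' median was -0.01. Neuron markers were positive in 9 of 10 genes (median 0.34), with a sum of 6951 to 19798 CPM in room air and 9219 to 20957 under moderate. All 3 choroid plexus and ependymal markers were positive (median 0.74), with a sum of 3.30 to 349 CPM in room air and 7.61 to 1661 under moderate. The part of these 2 lists was not tested. In the neighbouring pathways, all 14 TCA cycle genes and all 10 glycolysis genes tested had positive log2 fold changes, with medians of 0.13 and 0.31. Citrate synthase (CS), named after its value was seen, stood at 0.26 ± 0.12 (SE) and did not pass the adjusted test.

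In VRC most members had positive log2 fold changes under both conditions. Against room air 48 of 57 were positive under mild (median 0.13) and 48 of 57 under moderate (median 0.10), where 51.2% and 51.4% of all genes were positive, with medians of 0.01 over all genes in both. The mild median was 0.06 without mild replicate 1, 0.21 without room air replicate 1 and 0.15 with the myelin covariate (49 positive). The moderate one was 0.02 without moderate replicate 1 (31 of 57 positive), 0.18 without room air replicate 1 and 0.02 with the myelin covariate (35 positive). With edgeR no member reached an unadjusted p under 0.05 in either, where 3.61% and 2.82% of all genes were higher and 2.61% and 2.85% lower. Without room air replicate 1, 12 members had one under mild (1434 of all genes, against 953) and none under moderate. With all libraries DESeq2 gave none in either, and limma gave 7 and 1, with 1544 and 1360 of 15302 genes. Under mild hypercapnia 12 members reached it once replicate 1 of room air was left out. All 8 microglia and all 5 leukocyte and red cell markers were positive under mild hypercapnia too (medians 0.43 and 1.00), and their part was not tested. The summed leukocyte and red cell markers ran from 10.6 to 19.2 CPM in room air, 12.7 to 91.6 under mild and 14.0 to 18.8 under moderate. NDUFB3 had the smallest p under mild, at 0.32 ± 0.16 (SE), and NDUFAF5 under moderate, at 0.27 ± 0.14.

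Moderate against mild, the median in VRC was -0.02, with 25 of 57 positive, where 50.5% of all genes were. It was 0.05 without mild replicate 1 (40 positive), -0.12 without moderate replicate 1 (17 positive) and -0.13 with the myelin covariate (10 positive). All 5 complex I core subunits were positive (median 0.13), and 3 of 20 accessory subunits were (median -0.13). NDUFV1, ATP5F1B and UQCRC1 were higher and COX17 lower at an unadjusted p under 0.05, where 7.65% of all genes were higher and 7.87% lower. NDUFV1 ran from 266 to 369 CPM in room air (median 317), from 254 to 321 under mild (median 296) and from 295 to 428 under moderate (median 367). The groups overlapped, with a log2 fold change of 0.29 ± 0.11 (SE, edgeR adjusted p = 0.226).
ATP5F1B ran from 2107 to 2468 CPM in room air (median 2300), from 1606 to 2468 under mild (median 2218) and from 2225 to 2846 under moderate (median 2596), a log2 fold change of 0.24 ± 0.10 (SE, edgeR adjusted p = 0.262) with overlap. COX17 ran from 56.4 to 131 CPM under mild (median 83.1) and from 48.6 to 93.5 under moderate (median 62.3), a log2 fold change of -0.48 ± 0.23 (SE, edgeR adjusted p = 0.309). All 14 TCA cycle and all 10 glycolysis genes were positive here (medians 0.22 and 0.37), while 12 of 13 mtDNA-encoded subunits were negative (median -0.29). All 10 neuron markers were positive and all 8 microglia markers negative (medians 0.34 and -0.54). The summed neuron markers ran from 7547 to 16911 CPM under mild and from 7959 to 20188 under moderate, and the microglia markers from 340 to 589 and from 239 to 424 CPM. The part of these in the members' values was not tested.

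In mPFC the members stood higher under mild hypercapnia, with 51 of 57 positive, where 48% of all genes were, and a median of 0.17 (-0.01 over all genes). At an unadjusted p under 0.05, 4 were higher and 1 lower, where 2.01% and 1.44% of all genes were. DESeq2 gave 7 members and 588 genes at that threshold, and limma 27 members and 1077 of 15403 genes. The myelin covariate gave 6 members and 558 genes, and the median stayed at 0.17. NDUFA5, an accessory subunit, ran from 37.9 to 58.8 CPM in room air (median 45.2), from 53.9 to 73.5 under mild (median 56.1) and from 40.8 to 56.1 under moderate (median 46.8). Mild and room air overlapped between 53.9 and 58.8 CPM, with a log2 fold change of 0.37 ± 0.11 (SE, edgeR adjusted p = 1.00).
COX7A2L, which takes part in joining complexes III and IV, ran from 53.8 to 76.3 CPM in room air (median 61.7), from 68.2 to 124 under mild (median 75.1) and from 57.6 to 76.9 under moderate (median 61.2), again with overlap. COX10 was the 1 lower member, at -0.27 ± 0.10 (SE), with 28.1 to 32.6 CPM under mild (median 31.2). Replicate 5 of mild held the lowest share of members of any library, 0.850%. Without it 32 members had an unadjusted p under 0.05, and 1066 of all genes against 532. All 10 neuron markers were positive (median 0.08), and all 8 astrocyte and all 7 pericyte and smooth muscle markers were negative (medians -0.08 and -0.32). The summed neuron markers ran from 8476 to 10863 CPM in room air and 8874 to 12375 under mild, the astrocyte markers from 6221 to 9970 and 5888 to 9304, and the pericyte and smooth muscle markers from 210.2 to 1107 and 156 to 410.4. Their part was not tested. Under moderate hypercapnia the median was 0.06 (-0.00 without moderate replicate 5) and no member reached an unadjusted p under 0.05, where 1.14% of all genes were higher and 0.961% lower. DESeq2 and limma gave none there either. Moderate against mild the median was -0.08, with 1 member higher and 2 lower, where 2.17% and 2.53% of all genes were. Without mild replicate 5 these were 14 members (624 of all genes, against 725) and a median of -0.16, and without mild replicate 1 the median was -0.03. Without moderate replicate 5 the median was -0.15.

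Whether a member's response differed among the regions was tested on all 72 libraries with 3 degrees of freedom, the libraries being taken as independent. No member passed an adjusted p of 0.05 with edgeR or DESeq2. With edgeR 1 member had an unadjusted p under 0.05 for the mild response and 3 for the moderate response, where 2.4% and 3.83% of all genes had one. Across regions, though, 69 of 72 libraries correlated best with their own replicate number. With that number within a condition as a block, 1 and 7 members had an unadjusted p under 0.05. Over all genes that fit gave 770 and 1254, against 393 and 627, and no member passed the adjusted test. The smallest p-values were those of COX7A2L (unadjusted p = 0.0476) and NDUFB3 (unadjusted p = 0.0529) for mild. For moderate they were those of COX7A1 (unadjusted p = 0.0156) and NDUFA13 (unadjusted p = 0.0258), all with an adjusted p of 1.

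Members with short and long gene models stood apart in most of these comparisons. The split, at 600 bases of model length, was chosen after the values were seen. In NTS under moderate hypercapnia the 33 short members had a median log2 fold change of -0.25 with 2 positive, and the 24 long ones a median of 0.00 with 12 positive. In mPFC under mild hypercapnia the medians were 0.24 for the short and 0.05 for the long members, and in RTN, moderate against mild, -0.18 for 32 short and -0.03 for 24 long members. The same split over all genes gave -0.14 and 0.01 in NTS, 0.09 and -0.02 in mPFC, and -0.11 and 0.02 in RTN, so short genes as a whole lay to the same side. The ribosomal protein genes had medians of -0.40, 0.20 and -0.34 in these comparisons, on the same side as the short members, and in VRC, moderate against mild, -0.30 where the short members had -0.11 and the long ones 0.07. The sides differed in mPFC, moderate against mild, with -0.10 for the short members and 0.08 for the ribosomal protein genes. They also differed in VRC, moderate against room air, with 0.06 for the short members, 0.15 for the long ones and -0.03 for the ribosomal protein genes. Of the complex I accessory subunits 14 of 20 are short, and none of the 5 core subunits is. Of the 6 long accessory subunits, NDUFA12 and NDUFS5 were among the lower members in NTS under moderate hypercapnia (-0.41 and -0.34) and in RTN, moderate against mild (-0.20 and -0.28). NDUFA9 and NDUFA10, also long, stood at 0.14 and 0.05 in that NTS comparison and at 0.05 and 0.04 in that of RTN. The parts of role and length were not tested.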

How the data were processed

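The deposited table holds counts, given by the authors as whole numbers per gene, and deposited RPKM values for the same 72 libraries. A length column of the deposited file (unit other) gives gene model length in bases. FastQC, Trimmomatic, STAR, featureCounts and edgeR are named in the submitters' processing notes. The libraries were made with a SMARTer low-input kit, per the labels' protocols; of strand use, versions, build and shared reads, the sources used here say nothing, so members with near-identical copies, and those that overlap other genes, are uncertain. No coordinates or sequences were used.

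All tests used counts and edgeR 4.0.16 in R 4.3.3: low counts were removed by filterByExpr (minimum count 10), scaling was by TMM, tests were quasi-likelihood F-tests, and Benjamini-Hochberg adjustment at 0.05 over all genes tested. CPM values are on TMM-scaled library sizes. Errors are SD for levels and SE for log2 fold changes. In each region 18 libraries were fitted together; regions were compared in the 24 room air libraries. The tests were also run on simulated counts of independent libraries. Changes as small as most of those under hypercapnia, and libraries that vary together, were not simulated. Library pairs within a group all differed beyond sampling noise (chi-square over its degrees of freedom 15.3 to 216).

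Members and lists were chosen with earlier results of these data known. Named members are those called (all if 5 or fewer, otherwise the 6 largest changes each way with a mean of at least 5 CPM), the smallest p each way where none was called, the highest RPKM per complex and among assembly factors, the isoforms with their partners, ATP5MC3, ATP5IF1, catalytic subunits, and the smallest p of each interaction; any other gene was named after its values were seen. Values of 2 single genes are not reported here. Alternatives were DESeq2 1.42.0, limma 3.58.1 with quality weights, RLE factors, no filter, a replicate block, other sets of libraries, a myelin covariate, and each library left out.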

Additional observations from a re-analysis of the deposited data

Results flagged for a closer look

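Of 125 groups of 6 libraries tested, 12 held a library whose gap to its nearest neighbour was large against the range of the group (Dixon's test at 95%). Chance alone marks about 1 in 20 groups. Replicate 1 of NTS in room air gave 6 of the 12. Its members took 1.28% of counts, where the others of the group ranged from 0.950% to 1.03%, and its mtDNA-encoded genes took 0.619%. It held ATP5IF1 at 406 CPM (others 277 to 297), COX14 at 73.2 (39.3 to 48.1), NDUFA2 at 253 (117 to 167) and NDUFAF3 at 46.0 (32.9 to 34.8).

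In mPFC, replicate 5 of moderate hypercapnia had 1.22% of counts in members, where the others had 0.976% to 1.04%. In RTN, COX17 was at 54.9 CPM in mild replicate 3 (others 66.7 to 72.3) and at 75.2 in room air replicate 1 (others 43.8 to 53.8). NDUFA1 was at 179 CPM in RTN mild replicate 4 (others 134 to 144), and NDUFB4 at 126 in RTN mild replicate 5 (others 106 to 111). COX7B2 was at 2.89 CPM in VRC room air replicate 3, where the others ran from 0.385 to 1.2.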

How the results depend on the processing

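Of 1674 alternative values for 102 results, 1610 counted as kept, 37 fell short of the threshold, 1 passed it, 23 moved and 3 reversed. Of the 37, 15 came with the myelin covariate. Single members were judged by direction and side of the threshold, and counts by size. A median counted as kept if it moved by less than the SD between replicates (0.12 to 0.30), whatever its sign. So the 3 reversed are single members, and some kept medians changed sign. With the myelin covariate the median of RTN against VRC went from -0.06 to 0.08 (47 of 57 positive). That of NTS, mild against room air, went from -0.05 to 0.03 (44 of 57 positive). The causes were not tested. The 1 that passed was COX17 in RTN, moderate against mild, with DESeq2, where 5 members were called. With the myelin covariate the calls were 3 for mPFC against the medulla (median 0.24, with COX7A1 at 0.19, COX17 at 0.59 and NDUFB3 at 0.58 reversed), 0 for NTS against VRC (median -0.10), 1 for RTN against VRC and 13 for RTN against NTS. Over all genes these fits called 2043, 356, 731 and 2236, against 9568, 5179, 2302 and 3394 in the main fits. With all 72 libraries and additive terms the calls were 52, 26 and 46 for NTS against VRC, RTN against VRC and RTN against NTS, and without NTS room air replicate 1 they were 47, 6 and 36. Over all genes the first fit called 10131, 6447 and 8658, and the second 6619, 3095 and 4689. Leaving out 1 replicate number from all regions gave 20 to 46, 1 to 5 and 12 to 37. At the ends 20, 1, 5 and 37 the calls over all genes were 3800, 1576, 2723 and 4773, and at 12 they were 2251 and 2264. On library totals, 5 members did not overlap in NTS, moderate against mild, and 1 in RTN, mild against room air. The share of all genes without overlap on that scaling is not given here, so these counts cannot be set against it.

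Same-numbered libraries of different regions deviated together in 92 of 108 pairs (r over 0.1, median 0.23, lowest -0.04), and 69 of 72 libraries correlated best with their own number, a hint from the data only. In room air all 24 libraries correlated best with their own number. With the replicate block the calls were 47, 41, 6 and 32 for mPFC against the medulla, NTS against VRC, RTN against VRC and RTN against NTS. The main fits called 41, 31, 3 and 21 members. Over all genes the block gave 10265, 6288, 3406 and 4417 calls, against 9568, 5179, 2302 and 3394. Across conditions the numbers share only a number (median r 0.02 over 72 pairs). Depth limits COX7B2, COX6A2 and COX6B2 most.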

Other observations

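In RTN under moderate hypercapnia 13 of 14 TCA cycle genes had positive log2 fold changes against room air (median 0.10), and 4 were higher at an unadjusted p under 0.05, where 3.77% of all genes were. IDH2 stood at 0.40, OGDH at 0.24 and CS at 0.22, all named after their values were seen and none past the adjusted threshold. In RTN against NTS in room air 9 of 14 TCA cycle genes were higher with edgeR, where 11.2% of all genes were. Neuron markers in mPFC had a negative log2 fold change in 10 of 10 genes in moderate against mild (median -0.27), with 3 lower at an unadjusted p under 0.05, where 2.53% of all genes were.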
